A study of Homo sapiens with 6 samples.

Results

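Kallikrein-related peptidases and the SPINK5 inhibitor were followed at the transcript level in HaCaT cells, an established line of immortalised human keratinocytes, after knockdown of Agrin. The genes were taken by name as a family, namely KLK5, KLK6, KLK7, KLK8, KLK10, KLK11, KLK13, SPINK5 and SPINK6, and 7 of these 9 were measured among 14168 listed genes. KLK13 and SPINK6 were not analysed here. Cells had received an siRNA against Agrin (siAgrin, 3 libraries) or a control siRNA (siControl, 3 libraries), and the labels give no other difference between the groups. The sources used here do not name the Agrin siRNA that was sequenced or the time of harvest, so that effects of 1 particular siRNA cannot be told apart from effects of losing Agrin. Values are CPM, the reads of a gene scaled to library size. Log2 fold changes compare siAgrin with siControl on log2(CPM + 0.5), and the words rose and fell are kept for genes with a limma adjusted p below 0.01 over the 13050 genes tested.

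Kallikreins are secreted serine proteases that are made as inactive precursors and activate one another in a cascade. In the outer epidermis KLK5, which cuts after basic residues as trypsin does, and KLK7, which cuts as chymotrypsin does, cleave the proteins of corneodesmosomes and so release dead cells at the skin surface. SPINK5 encodes LEKTI, a multidomain Kazal-type inhibitor that restrains KLK5, KLK7 and other kallikreins, and whose loss causes Netherton syndrome, an inherited skin barrier disease.

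The targeted transcript AGRN was at 48.8% of the control mean, with 403, 412 and 387 CPM in siAgrin libraries and 797, 833 and 833 CPM in siControl libraries. The 2 groups did not overlap, although with 3 libraries against 3 an exact permutation test cannot go below the two-sided p of 0.1 that it gave. The listed genes held between 40958553 and 43312708 reads per library, and the family members had between 117 and 10777 reads each per library. All 5 keratinocyte markers were detected, with KRT5 at 4566 to 5099 CPM in siAgrin and 4249 to 4408 CPM in siControl libraries. Replicates were not equally close. Over genes with at least 50 reads in a pair of libraries, siAgrin 1 and siAgrin 2 differed by 42.3 times the variance of read sampling, and siControl 2 and siControl 3 by 2.70 times. The study's methods mention biological repeats for most of its cell culture work in general, but nothing in the labels says that these libraries came from separate cultures. If they did not, p-values measure only the spread between these libraries.

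After Agrin knockdown 3 of the 6 kallikrein transcripts measured fell, 3 did not pass the test and SPINK5 rose. KLK10, KLK8 and KLK7 fell to 49.0%, 60.1% and 65.1% of their control means, while SPINK5 rose to 147%. The abundant KLK5 stood at 95.6% of its control mean and did not pass the test. In all tested genes 9.07% fell and 9.14% rose, with a median log2 fold change of -0.0019, against 3 and 1 of the 7 members and a median of -0.60 over the members. In 4 members every siAgrin library lay below every siControl library, and in 1 every siAgrin library lay above them. This was so for 24.9% and 25.0% of all tested genes. The members were chosen with earlier results of these data in view, and these shares are given as a description. In bulk RNA, fewer cells making a transcript and less transcript per cell cannot be told apart.

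**Figure D1:**
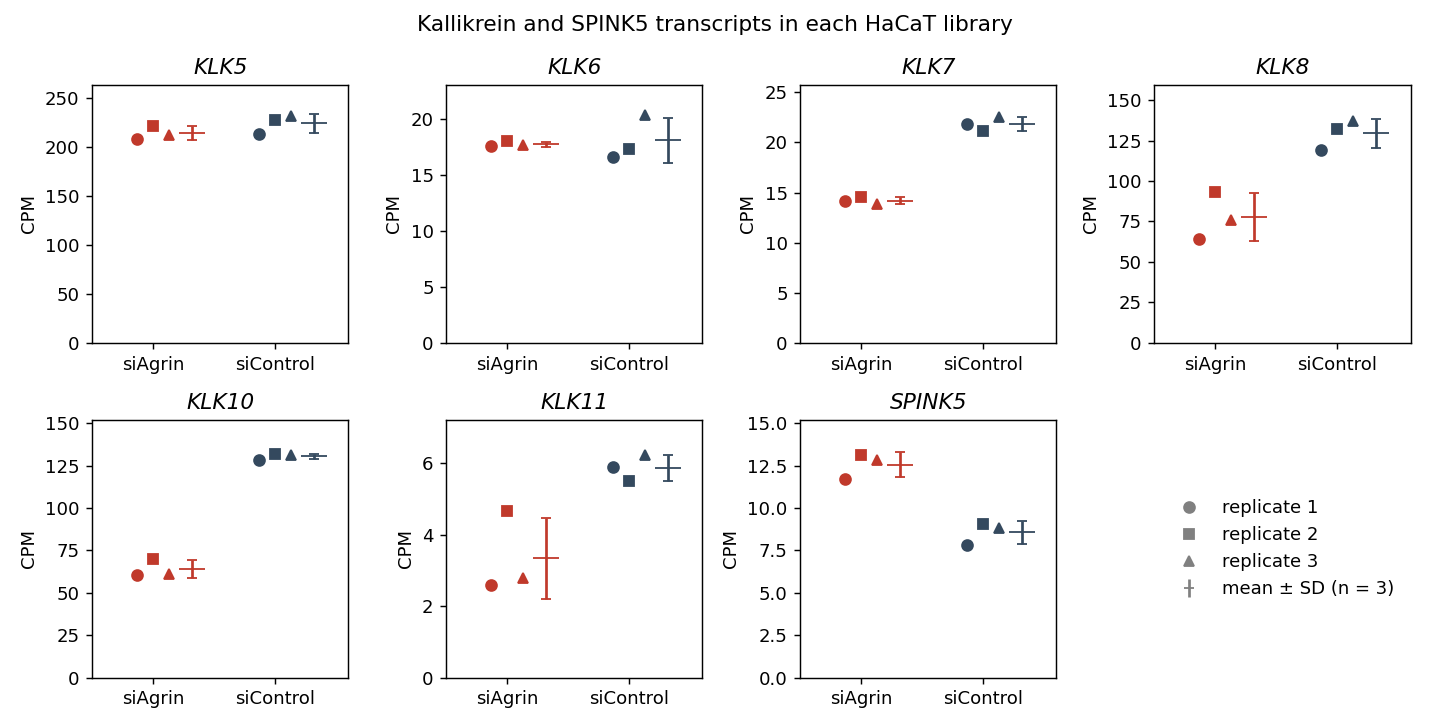
CPM of each measured member in every library, with siAgrin libraries in red on the left of each panel and siControl libraries in dark blue on the right; marker shape gives the replicate number, and the bar beside the points is the mean ± SD (n = 3). KLK7, KLK8, KLK10 and KLK11 lie lower in all siAgrin libraries, SPINK5 lies higher, and KLK5 and KLK6 overlap between the groups.

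On a scale of CPM per kilobase of merged exons, KLK5 was the highest member in both groups, as it was in CPM. Merged exons join all annotated transcripts of a gene, and which of them were expressed was not measured. The order on this scale therefore depends on the annotated lengths. KLK8 and KLK10 had 129 and 130 CPM in siControl libraries, but merged lengths of 1865 and 3798 bases. In siAgrin libraries the mean levels were 129.6 for KLK5, 41.7 for KLK8, 16.8 for KLK10, 8.998 for KLK6, 5.80 for KLK7, 2.63 for SPINK5 and 1.08 for KLK11. In siControl libraries they were 136 for KLK5, 69.4 for KLK8, 34.3 for KLK10, 9.16 for KLK6, 8.91 for KLK7, 1.89 for KLK11 and 1.79 for SPINK5. A pair of neighbours at each of 2 places in this order was not separated in siControl libraries. KLK6 (8.40 to 10.3) spanned the range of KLK7 (8.63 to 9.21), and KLK11 (1.77 to 2.00) overlapped SPINK5 (1.63 to 1.90). In siAgrin libraries neither pair overlapped, since KLK7 reached at most 5.94 against a lowest KLK6 value of 8.92, and SPINK5 was at least 2.45 against a highest KLK11 value of 1.49.

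The initiating protease of the epidermal cascade, KLK5, did not pass the test. KLK5 measured 208, 222 and 212 CPM in siAgrin libraries, against 213, 228 and 231 CPM in siControl libraries. The ranges overlapped, and the means of 214 ± 6.94 and 224 ± 9.77 CPM (SD, n = 3 each) gave a log2 fold change of -0.06 (standard error 0.05, limma adjusted p = 0.32). The 95% interval of this change ran from -0.17 to 0.05, that is from a loss of 11.4% to a gain of 3.19%. KLK5 lies on chromosome 19 of GRCh38 from 50943303 to 50953093.

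KLK7, the chymotrypsin-like partner that KLK5 can activate, fell with little scatter between replicates. It had 14.2, 14.5 and 13.9 CPM in siAgrin libraries and 21.8, 21.1 and 22.6 CPM in siControl libraries. The highest siAgrin value was well below the lowest siControl value, and the coefficient of variation was 2.37% in siAgrin and 3.28% in siControl libraries. The log2 fold change was -0.60 (standard error 0.05, limma adjusted p = 3.0e-04), with a 95% interval from -0.73 to -0.48. KLK7 lies from 50976468 to 50984099 of chromosome 19. Its call held when any single library was left out, with adjusted p from 1.5e-04 to 0.0037.

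KLK8, a trypsin-like protease also known as neuropsin and made by both neurons and keratinocytes, fell by 0.75 on the log2 scale (standard error 0.12, limma adjusted p = 0.0033). Its values were 64.0, 93.5 and 75.9 CPM in siAgrin libraries and 119, 132 and 137 CPM in siControl libraries. The siAgrin libraries scattered widely, with siAgrin 2 nearest to the controls, and the 95% interval ran from -1.03 to -0.46. Without siAgrin 3, siControl 2 or siControl 3 in turn, the adjusted p was 0.021, 0.019 and 0.0197, so that the call rests on these libraries, while the log2 fold change stayed between -0.89 and -0.61 with any 1 library left out. In the annotation used here KLK8 (50996007 to 51002711 of chromosome 19) shares 747 exon bases, 40.1% of its own, with a read-through gene on the same strand, and 204 with KLK9. How reads in these bases were assigned is not stated, and the KLK8 level is uncertain to that extent.

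KLK10, a kallikrein often silenced in breast carcinoma cells, changed most among the members. It measured 60.3, 69.8 and 61.3 CPM in siAgrin libraries, against 128, 132 and 131 CPM in siControl libraries. The groups were far apart and all siControl values lay within a narrow band, the coefficient of variation being 8.18% in siAgrin and 1.30% in siControl libraries. KLK10 averaged 63.8 ± 5.22 CPM in siAgrin and 130.4 ± 1.70 CPM in siControl libraries (SD, n = 3 each), a log2 fold change of -1.03 (standard error 0.06, limma adjusted p = 7.1e-05). KLK10 ranked 22 among the 13050 genes by p-value and was the 1 member that fell by more than 2-fold, which 1.26% of all tested genes did. The 95% interval from -1.16 to -0.89 includes changes smaller than that. With any 1 library left out the adjusted p stayed at or below 0.0013. The gene occupies 51012739 to 51020175 of chromosome 19.

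KLK11, a trypsin-like kallikrein and the neighbour of KLK10, was lower in every siAgrin library but did not pass the test. It had 2.59, 4.65 and 2.80 CPM in siAgrin libraries, or 117, 213 and 129 reads, and 5.91, 5.50 and 6.23 CPM in siControl libraries, or 275, 254 and 290 reads. The library siAgrin 2 again lay nearest to the controls. The log2 fold change was -0.77 (standard error 0.18, limma adjusted p = 0.014), with a 95% interval from -1.18 to -0.35. Without siAgrin 2 the change was -0.997 and passed with an adjusted p of 1.2e-04, and DESeq2 on the recovered reads gave an adjusted p of 8.0e-04, whereas edgeR gave 0.018.

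KLK6, also known as neurosin, did not pass. It had 17.6, 18.0 and 17.7 CPM in siAgrin libraries and 16.6, 17.3 and 20.4 CPM in siControl libraries. The siControl range enclosed all siAgrin values. The log2 fold change was -0.02 (standard error 0.08, limma adjusted p = 0.86), with a 95% interval from -0.20 to 0.16. A lncRNA on the opposite strand shares 401 exon bases, or 20.3%, with KLK6 in the annotation used here. The same lncRNA shares 12.2% of the exon bases of KLK5, and another shares 6.32% of those of KLK10. The study's methods name a stranded library kit, but the strand setting of the counting is not stated. Whether reads of these lncRNAs were counted with KLK6, KLK5 and KLK10 there is therefore not known.

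The inhibitor SPINK5 moved in the opposite direction to KLK7, KLK8 and KLK10. It measured 11.7, 13.1 and 12.8 CPM in siAgrin libraries, against 7.80, 9.08 and 8.83 CPM in siControl libraries. Every siAgrin library exceeded every siControl library. The means of 12.6 ± 0.740 and 8.57 ± 0.679 CPM (SD, n = 3 each) gave a log2 fold change of 0.53 (standard error 0.08, limma adjusted p = 0.0021), with a 95% interval from 0.35 to 0.71. Without siAgrin 3 or siControl 3 the adjusted p was 0.017 and 0.011. SPINK5 lies on chromosome 5 from 148025683 to 148137382, apart from the kallikreins, and 6.76% of its exon bases are shared with FBXO38-DT on the opposite strand.

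**Figure D2:**
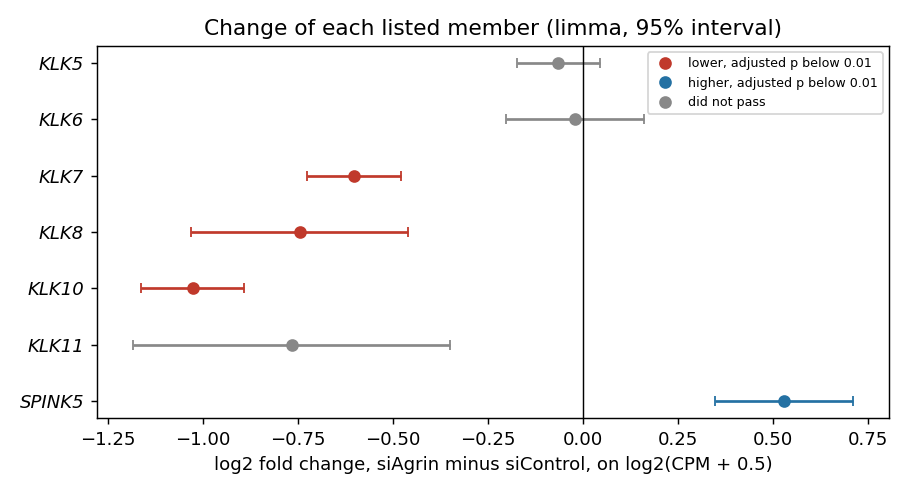
Log2 fold change of each measured member, siAgrin minus siControl on log2(CPM + 0.5), with the 95% interval from limma (3 libraries in each group). Red points fell, the blue point rose and grey points did not pass at an adjusted p below 0.01; KLK10 is at -1.03 and SPINK5 at 0.53, and the KLK11 interval lies wholly below 0 although its adjusted p is 0.014.

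The ratios of KLK7 and KLK5 to SPINK5 transcript within each library were lower after Agrin knockdown. They hold for SPINK5 only, since other serine protease inhibitors, SLPI and SERPINB6, fell to 35.9% and 81.1% of their control means. The ratio of KLK7 to SPINK5 CPM was 1.21, 1.11 and 1.08 in siAgrin libraries, against 2.80, 2.33 and 2.55 in siControl libraries. For KLK5, which itself did not pass, the ratio to SPINK5 was 17.8, 16.9 and 16.5 in siAgrin libraries and 27.3, 25.1 and 26.2 in siControl libraries. Neither ratio overlapped between the groups. These are ratios of transcript reads that are not corrected for gene length, and they say nothing of protein or of enzyme activity.

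The composition of the kallikrein pool also differed. The 6 measured kallikreins summed to 367, 422 and 384 CPM in siAgrin libraries and to 505, 535 and 549 CPM in siControl libraries. KLK5 made up 56.8%, 52.5% and 55.3% of these reads in siAgrin libraries, against 42.2%, 42.6% and 42.2% in siControl libraries. Relative to KLK5, KLK10 stood at 0.289, 0.315 and 0.289 in siAgrin libraries and at 0.603, 0.577 and 0.567 in siControl libraries. The ratio of KLK8 to KLK5 was 0.307, 0.421 and 0.358 in siAgrin libraries and 0.560, 0.579 and 0.592 in siControl libraries. Ratios and sums over members are descriptive and were not tested.

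**Figure D3:**
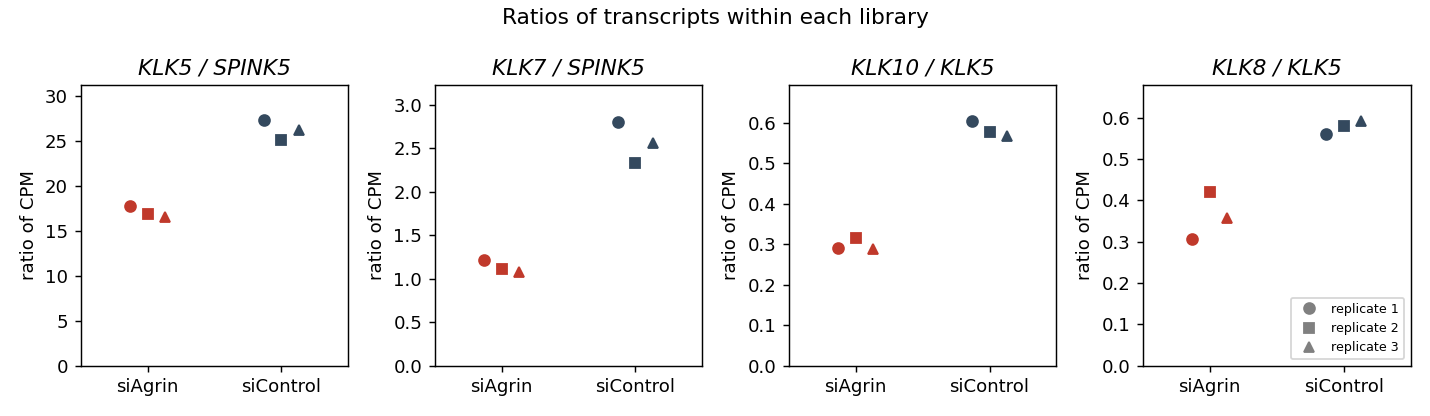
Ratios of CPM within each library for KLK5 to SPINK5, KLK7 to SPINK5, KLK10 to KLK5 and KLK8 to KLK5, with siAgrin libraries in red on the left and siControl libraries in dark blue on the right; marker shape gives the replicate number. In all 4 panels every siAgrin library lies below every siControl library, and siAgrin 2 is the highest siAgrin library in both panels relative to KLK5.

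The kallikrein genes form 1 uninterrupted cluster on the long arm of chromosome 19, and the members that fell are consecutive among the kallikreins measured in it. In rising coordinates the measured members are KLK5, KLK6, KLK7, KLK8, KLK10 and KLK11, all on the minus strand. Their log2 fold changes were -0.06, -0.02, -0.60, -0.75, -1.03 and -0.77. Beyond KLK11 the next tested gene matched by name was CTU1, a tRNA thiolation enzyme. It had 5.23 ± 0.679 CPM in siAgrin and 5.76 ± 0.377 CPM in siControl libraries (log2 fold change -0.13, limma adjusted p = 0.33). At the other end KLK1, tissue kallikrein, had 1.84, 2.55 and 2.10 CPM in siAgrin libraries and 2.17, 2.64 and 2.79 CPM in siControl libraries (log2 fold change -0.19, limma adjusted p = 0.28), which overlapped. Flanking genes were taken from 500 kb before to 500 kb after the cluster (50319146 to 51584245) and matched by gene name. Tested genes named otherwise in the annotation used here, such as lncRNAs that it gives by identifier only, are left out. Of 9 tested non-members so matched none fell and 1 rose, against 9.07% and 9.14% of all tested genes. That gene was EMC10, a subunit of the endoplasmic reticulum membrane protein complex, at 64.2 ± 1.65 CPM in siAgrin and 46.4 ± 1.502 CPM in siControl libraries (SD, n = 3 each, limma adjusted p = 3.6e-04). Around the SPINK cluster of chromosome 5, of 3 tested non-members matched by name DPYSL3 rose (log2 fold change 0.32, limma adjusted p = 0.0060). It did not pass when any single library other than siAgrin 2 was left out.

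**Figure D4:**
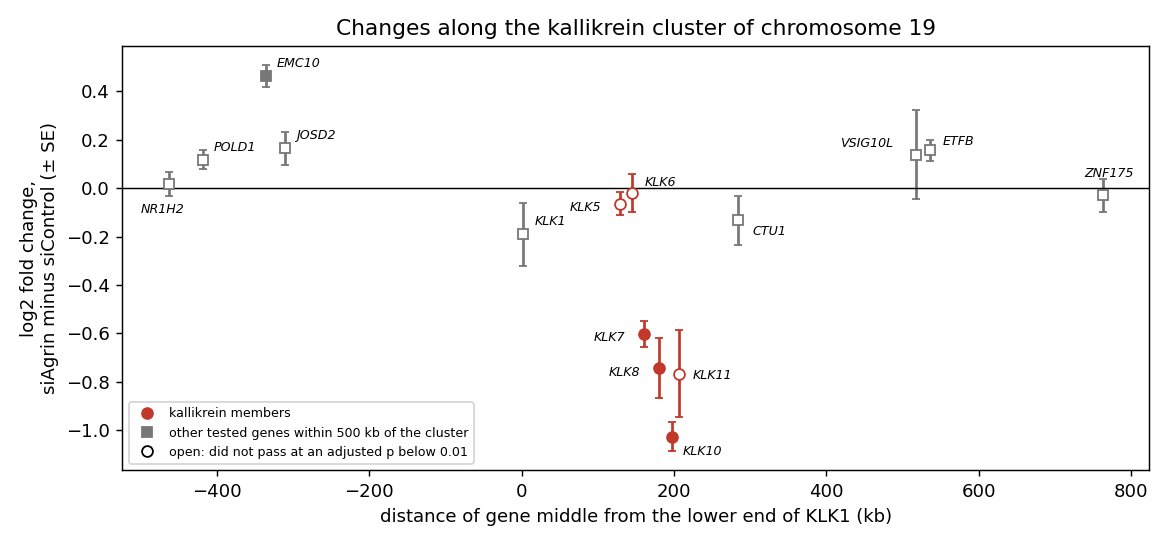
Log2 fold change (siAgrin minus siControl, ± SE) of tested genes against the distance of the gene's middle from the lower end of KLK1, in kb along chromosome 19. Red circles are the kallikrein members, grey squares are other tested genes matched by name, and open symbols did not pass at an adjusted p below 0.01. KLK7, KLK8, KLK10 and KLK11 lie at -0.60 to -1.03, while KLK5, KLK6 and the flanking genes shown lie at -0.19 or above.

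The sequences just before the starts of members are shown for 2 genes that fell, 1 that did not pass and the inhibitor that rose. Any part of these letters in the changes was not tested. Promoter windows from RefSeq (GRCh38.p14) were found for 6 of the 7 measured members, in 10 windows, and the 250 bases before the first listed start are printed 5′ to 3′ on the gene's own strand. All 4 RefSeq starts used here lie inside the longer GENCODE spans given above, that of SPINK5 furthest, so the full 250 bases before a start further upstream are not shown. Capitals mark matches, on either strand, to GGAATG (the core of the TEAD motif), GGGCGG (the GC box) or TATAAA (the TATA box).
KLK10 (fell, chr19:51019862-51020111, minus strand): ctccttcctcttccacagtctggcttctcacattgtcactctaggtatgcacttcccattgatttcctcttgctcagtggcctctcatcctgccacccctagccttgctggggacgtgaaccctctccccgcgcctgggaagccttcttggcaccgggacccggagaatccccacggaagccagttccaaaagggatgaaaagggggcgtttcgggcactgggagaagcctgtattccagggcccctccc
KLK7 (fell, chr19:50983918-50984167, minus strand): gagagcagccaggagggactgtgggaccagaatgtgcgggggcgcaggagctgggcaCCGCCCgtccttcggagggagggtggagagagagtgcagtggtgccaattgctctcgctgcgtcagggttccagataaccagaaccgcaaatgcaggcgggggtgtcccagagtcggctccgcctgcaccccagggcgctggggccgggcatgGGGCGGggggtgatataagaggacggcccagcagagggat
KLK5 (did not pass, chr19:50953039-50953288, minus strand): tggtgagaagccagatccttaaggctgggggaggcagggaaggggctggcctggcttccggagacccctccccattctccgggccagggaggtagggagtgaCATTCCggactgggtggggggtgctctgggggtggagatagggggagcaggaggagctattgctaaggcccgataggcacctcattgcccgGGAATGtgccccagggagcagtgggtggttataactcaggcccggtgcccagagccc
SPINK5 (rose, chr5:148063730-148063979, plus strand): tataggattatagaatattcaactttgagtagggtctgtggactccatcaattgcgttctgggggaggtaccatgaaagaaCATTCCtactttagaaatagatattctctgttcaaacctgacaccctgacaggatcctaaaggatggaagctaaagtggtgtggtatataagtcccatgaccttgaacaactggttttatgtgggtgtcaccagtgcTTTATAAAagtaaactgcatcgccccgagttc
The KLK10 window held no match to these letters. KLK7 had a GC box match beginning 193 and 40 bases before its start, KLK5 a TEAD match beginning 148 and 57 bases before, and SPINK5 a TEAD match at 169 and overlapping TATA matches at 32 and 30. Across the 10 windows 2 held the TEAD letters, 5 the GC box, 1 the TATA box and none the AP-1 letters TGANTCA. Windows of 1 gene can overlap, and those of KLK7 share matches. The GC box windows came from KLK7, which fell, and from KLK6 and KLK11, which did not pass. Among all 35116 RefSeq windows of this length the shares were 11.9% for TEAD, 42.6% for the GC box, 10.7% for TATA and 6.57% for AP-1. A match is a description of the letters, and no binding was measured here.

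Among 58 other genes of the kallikrein pathway and of keratinocyte differentiation in 6 lists, 24 were tested, of which 5 fell and 4 rose, with a median log2 fold change of -0.07. Over all tested genes 9.07% fell and 9.14% rose. KLK1 was the 1 measured gene among 8 other kallikreins, and of 8 other SPINK genes none was analysed here. Proteases that activate kallikreins or plasminogen did not share a direction. PLAT, tissue plasminogen activator, which makes plasmin, a protease that can activate some kallikreins, fell to 144, 230 and 159 CPM in siAgrin libraries, against 554, 711 and 705 CPM in siControl libraries (log2 fold change -1.90, limma adjusted p = 3.1e-04). PRSS3, which encodes mesotrypsin, rose to 6.18 ± 0.531 CPM in siAgrin libraries, against 4.10 ± 0.171 CPM in siControl libraries (SD, n = 3 each, limma adjusted p = 0.0026). The call of PRSS3 was lost without siAgrin 3 or any single siControl library, at an adjusted p of up to 0.017. Matriptase (ST14), which activates KLK5, had 273 ± 2.67 CPM in siAgrin and 254 ± 8.38 CPM in siControl libraries (limma adjusted p = 0.076) and missed the threshold, as did its partner prostasin (PRSS8) and the urokinase gene PLAU, at log2 fold changes of 0.08 and -0.76. PLAU passed without siAgrin 2, at an adjusted p of 0.0010.

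Of 7 tested inhibitors of serine proteases other than the SPINK genes, 2 fell and none rose, where 9.07% and 9.14% of all tested genes did. SLPI, the secretory leukocyte peptidase inhibitor, had 6.75, 8.45 and 6.84 CPM in siAgrin libraries and 19.5, 20.3 and 21.7 CPM in siControl libraries, a log2 fold change of -1.43 (limma adjusted p = 1.1e-04). SERPINB6, an intracellular serpin, fell by 0.30 on the log2 scale to 201 ± 2.63 CPM in siAgrin libraries, against 248 ± 2.34 CPM in siControl libraries (SD, n = 3 each, limma adjusted p = 9.6e-04), and without siAgrin 3 its adjusted p was 0.011. SPINT1, which encodes the matriptase inhibitor HAI-1, was at 190, 260 and 213 CPM in siAgrin libraries and 268, 299 and 308 CPM in siControl libraries without passing (limma adjusted p = 0.022), though it passed without siAgrin 2 at an adjusted p of 6.4e-04. SERPINF2 was lower in every siAgrin library and narrowly missed the threshold (log2 fold change -0.44, limma adjusted p = 0.0101). Without siAgrin 2 it passed at an adjusted p of 0.0071. SERPINA1, the antitrypsin gene, had 6.35, 8.34 and 6.51 CPM in siAgrin libraries and 5.03, 5.22 and 5.33 CPM in siControl libraries, higher in every siAgrin library as SPINK5 was, without passing (log2 fold change 0.40, limma adjusted p = 0.021). SERPINA3, the antichymotrypsin gene, had 2.94, 8.56 and 5.16 CPM in siAgrin libraries and between 2.79 and 3.36 CPM in siControl libraries, which overlapped (log2 fold change 0.64, limma adjusted p = 0.13), and it passed without siAgrin 1 at an adjusted p of 0.0044.

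Of 5 tested genes for proteins on which kallikreins act, IL1B and SMPD1 rose and none fell. Over all tested genes 9.14% rose and 9.07% fell. F2RL1, which encodes the protease-activated receptor PAR2 that KLK5 can cleave, measured 132, 136 and 143 CPM in siAgrin libraries and 139, 131 and 140 CPM in siControl libraries (limma adjusted p = 0.97). Filaggrin (FLG) did not pass either, with 50.1 ± 3.89 CPM in siAgrin and 52.9 ± 3.22 CPM in siControl libraries (SD, n = 3 each). IL1B was at 113, 152 and 145 CPM in siAgrin libraries, against 59.5, 58.9 and 69.9 CPM in siControl libraries (log2 fold change 1.11, limma adjusted p = 4.8e-04). SMPD1, acid sphingomyelinase, had a log2 fold change of 0.72 (limma adjusted p = 0.0011), and lost its call without siAgrin 3.

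Differentiation genes, which many kallikreins accompany in the epidermis, did not move in 1 direction. Of 6 tested genes IVL and KRT1 fell, CASP14 rose and KRT10, TGM1 and DMKN did not pass, where 9.07% of all tested genes fell and 9.14% rose. Involucrin (IVL) measured 20.8, 22.0 and 20.1 CPM in siAgrin libraries and 34.5, 49.4 and 51.6 CPM in siControl libraries (log2 fold change -1.07, limma adjusted p = 0.0012). The suprabasal keratin KRT1 had 2.97, 1.96 and 2.24 CPM in siAgrin libraries, against 6.53, 4.12 and 4.25 CPM in siControl libraries (limma adjusted p = 0.0081). CASP14, the caspase of cornification, was at 5.40 ± 0.437 CPM in siAgrin and 2.74 ± 0.229 CPM in siControl libraries (SD, n = 3 each, limma adjusted p = 6.3e-04). Without siAgrin 3 IVL had an adjusted p of 0.0102, and KRT1 did not pass without that library or any single siControl library. The basal keratin KRT14 rose, as SPINK5 did and opposite to KLK7, KLK8 and KLK10, with 2950.2 ± 235 CPM in siAgrin and 1942 ± 111 CPM in siControl libraries (SD, n = 3 each), and its part in the members' changes was not tested. Its adjusted p of 0.0016 became 0.012 without siControl 2 and 0.015 without siAgrin 3.

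**Figure D5:**
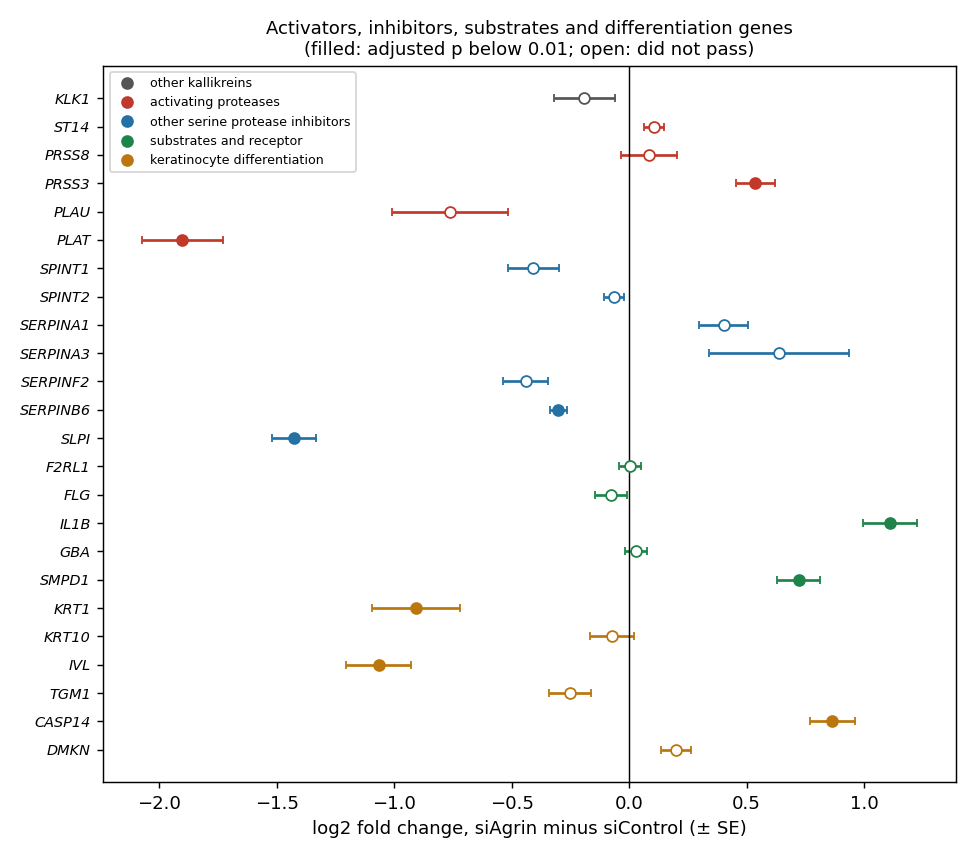
Log2 fold change (siAgrin minus siControl, ± SE) of the 24 tested genes of the related lists, coloured by list; filled points passed at an adjusted p below 0.01 and open points did not. PLAT and SLPI lie furthest to the left at -1.90 and -1.43 and IL1B furthest to the right at 1.11, and each of the activating protease and differentiation lists holds filled points on both sides of 0.

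Among siAgrin libraries every measured member, SPINK5 included, was highest in siAgrin 2. So were the keratinocyte markers KRT5 and KRT14, and the markers of another cell type, the fibroblast. The 6 fibroblast markers, all listed, summed to 9.45 to 45.7 CPM in siAgrin libraries and 12.2 to 19.5 CPM in siControl libraries. COL1A2 was at 0.266, 16.2 and 5.99 CPM in siAgrin libraries and at 0.129, 2.66 and 0.0644 CPM in siControl libraries. COL1A1, COL3A1 and PDGFRB also had higher means in siAgrin libraries, whereas DCN and LUM had lower ones (LUM 1.41 against 2.62 CPM). None of the 5 tested fibroblast markers passed. In siControl libraries COL1A2 was highest in siControl 2. There KLK7 (21.1 CPM) and KLK11 (5.50 CPM) were lowest, KLK10 (132 CPM) and SPINK5 (9.08 CPM) were highest, and KLK5, KLK6 and KLK8 lay in between. The part of the fibroblast transcripts in the kallikrein values was not tested. Without siAgrin 2 the log2 fold changes were -0.89 for KLK8 and -0.997 for KLK11. Of 4 endothelial markers 1 was listed, CDH5, at 1.43 to 2.25 CPM in siAgrin and 20.1 to 26.4 CPM in siControl libraries. CDH5 fell, with a log2 fold change of -3.42 (limma adjusted p = 2.3e-05). Of 4 melanocyte and 4 leukocyte markers 1 each was listed, PMEL and CD68, neither of which passed.

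Genes with a profile most like the mean of the 6 kallikreins over the 6 libraries were ARRDC2, ZNF358, CDC42EP2, CYP4F3 and ADIRF. Likeness was measured as the distance between centred log2(CPM + 0.5) values, which was 0.059 for ARRDC2 and 0.0902 for ADIRF. ARRDC2 had 16.2, 19.2 and 17.3 CPM in siAgrin libraries and 24.1, 25.3 and 27.1 CPM in siControl libraries. Like every measured member it was highest in siAgrin 2 among the siAgrin libraries. These 5 genes were picked for their likeness and were not tested on it.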

How the data were processed

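The authors sequenced polyadenylated RNA of 3 siAgrin and 3 siControl HaCaT libraries as single reads. Per the submitters' processing notes STAR 2.6.1d, SAMtools, HTSeq and edgeR were used with the hg38 build. Neither the strand option of the counting nor a rule for which genes were kept is given in the sources used here. The deposited values are CPM, already divided by the library size held in edgeR. Dividing by the CPM of 1 read gave whole reads within 0.01 for 100% of values.

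A two-sided limma-trend fit (limma 3.58.1 under R 4.3.3) set siAgrin against siControl on log2(CPM + 0.5). It took genes that reached 0.5 CPM in 3 or more libraries, with Benjamini-Hochberg adjustment over all 13050 tested genes and a threshold of 0.01, the false discovery rate of the study's methods. The script was tested on simulated data. Positions, exon lengths and overlaps are from GENCODE v44 on GRCh38, the build of the files but a later gene annotation than the authors used. The members and gene lists were chosen with earlier results of these data known. Named genes are all members, called genes of the related lists and neighbourhoods, exceptions a statement needs, and the 5 nearest profiles. On the recovered reads the quasi-likelihood test of edgeR 4.0.16 called 1204 genes higher and 1156 lower, and DESeq2 1.42.0 called 1702 higher and 1659 lower. Other alternatives were 0.1 and 2 CPM as pseudocount, all genes or those averaging 5 CPM, scaling by TMM or by median ratios, fits without trend or made robust, a replicate block, a threshold of 0.05, and each library left out in turn.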

Additional observations from a re-analysis of the deposited data

How the results depend on the processing

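Of 125 values of the 7 members under the alternatives, 114 kept direction and side of the threshold. KLK7 and KLK10 did so in all 18 alternatives each. KLK8 did not pass without the filter on low values (adjusted p = 0.0136 over 14168 genes), and KLK11 passed in DESeq2 and at a threshold of 0.05. With any 1 library left out, 2 to 4 members fell and 0 to 1 rose, and the KLK6 log2 fold change ran from -0.078 to 0.066, turning positive without siControl 3. Genes that rose numbered 278 to 1675 and genes that fell 311 to 1695 with 1 library left out, both lowest without siAgrin 3. Leaving out siControl 1, 2 or 3 also lowered these counts by more than 1.5 times. At a threshold of 0.05 they were 2382 and 2420. In the related lists 2 to 8 genes fell and 2 to 5 rose with 1 library left out, and 8 fell at a threshold of 0.05. The causes were not tested.

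Same-numbered siAgrin and siControl libraries deviated together for replicates 1 and 2 (r = 0.53 and 0.38 over the tested genes) but not for replicate 3 (r = -0.0018). The unlike-numbered siAgrin 2 and siControl 3 also deviated together (r = 0.35), so the numbers were not taken as pairs. With a replicate block 1952 genes rose and 2014 fell, 9 genes of the related lists fell and KLK11 passed (adjusted p = 0.0027). No other member's call differed.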
